A study of Mus musculus with 12 samples.

Results

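A group of 9 transcription factors that set lineage or effector fate in T cells was followed in cultured mouse regulatory T cells (Tregs), namely Bcl6, Prdm1, Batf, Irf4, Maf, Gata3, Rora, Tbx21 and Eomes. They were chosen by gene symbol, 9 of the 55228 symbols with a value, by a rule that uses no measured value. Earlier results of these data were known when they were chosen. RNA-seq had been run on 12 libraries, 3 in each of 4 groups, to compare Tregs signaling through a tethered interleukin-2 (IL-2) with Tregs given soluble IL-2 or none. All cells came from 1 pool of CD4+ lymph node cells of 16 NOD mice whose Foxp3 locus reports through GFP; Tregs were sorted from it as GFP+CD25+ cells in 3 portions that were activated apart, so the replicates were separate cultures of 1 pool and not separate animals. Every group was transduced with a retroviral vector on day 2 after activation and sorted on day 9 for the Thy1.1 reporter that the vector encodes. EV Tregs carried the empty vector, and after the wash on day 4 were grown for 5 days in the absence of IL-2 (EV no IL-2) or left in medium with mouse IL-2 (EV+IL-2). By the study's methods, the EV-transduced culture was divided between these conditions, so both EV groups share cultures. The 1G12t and the 3A10t Tregs were grown without IL-2 after the same wash, and carried the orthogonal IL-2 variant 1G12 or 3A10 fused by a linker to the orthogonal IL-2 receptor beta chain. The labels give no age for these mice, and the age range that the study's methods give for NOD donors of Tregs does not name them.

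CD4+ T cells take on distinct helper fates under lineage-defining factors: T-bet (Tbx21) for Th1, GATA3 for Th2, the ROR family with RORα (Rora) for Th17, and BCL6 for follicular helper T (Tfh) cells. Blimp-1 (Prdm1) and BCL6 are repressors that act against each other, while BATF and IRF4 bind DNA together at composite sites and open chromatin for the effector program. Tregs use the same factors beside Foxp3 when they become effector or tissue Tregs, and STAT5, the factor that IL-2 activates, is known from CD4+ T cells to restrain Bcl6.

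The values are TPM, which relate a gene's transcripts to all transcripts of the library, divided here by a median-of-ratios factor per library that lay between 0.854 and 1.09. TPM keep no read number, so the depth behind each value is unknown. Differences below are log2 fold changes on the log2(scaled TPM + 1) scale, where changes of low genes come out too small, and a gene is called at a Benjamini-Hochberg adjusted p under 0.05 in limma, fitted on 15043 genes with a mean of at least 1 TPM. All p-values measure the spread between cultures, in a fit that does not use the pairing of libraries with the same replicate number. The 8 Treg and CD4 T cell markers were all present, Foxp3 included, and summed to 2479 to 2814 TPM in every library. Foxp3 itself stood at 463, 369 and 391 TPM in 3A10t, below the 484 to 510 TPM of the other 9 libraries, and against EV no IL-2 did not pass the test (−0.28 on the log2 scale, adjusted p = 0.082, limma). Against EV+IL-2 it was called lower (−0.31, adjusted p = 0.019, limma), as were 13% of all genes. Against 1G12t it was not called (−0.29, adjusted p = 0.060, limma). Of 9 genes listed as a check of the IL-2 response, 7 were called between EV+IL-2 and EV no IL-2. All 7 were higher in EV+IL-2, beside 8.17% of all genes. Against EV no IL-2, 1 of the 9 was called in 3A10t (Socs2, higher, 0.44 on the log2 scale, adjusted p = 0.027, limma), beside 2.05% of all genes. In 1G12t 0 of the 9 were called, beside 0.0199%. This list was drawn up with earlier results of these data known. A pair of libraries departed from their groups. The granzyme gene Gzmb was at 47.2, 32.9 and 3.33 TPM for 1G12t replicates 1, 2 and 3, and leaving out 3A10t replicate 1 changed several calls, as given with each. Because these are bulk samples, fewer cells with a transcript and less of it per cell cannot be told apart.

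The 9 factors ran from under 1 TPM to over 100 TPM, and since TPM are per transcript length, levels can be ranked between genes. In EV no IL-2, Gata3 was the most abundant at 133 ± 4.01 TPM, followed by Batf at 109 ± 4.24, Rora at 54.7 ± 8.05 and Maf at 12.5 ± 1.51 (mean ± SD, n = 3, here and below). No library of one of these 4 genes overlapped its neighbor in that order. Prdm1, Bcl6 and Irf4 came next at 5.64 ± 1.08, 5.52 ± 0.497 and 4.64 ± 1.21 TPM, and their libraries overlapped. Tbx21 and Eomes were lowest at 0.728 ± 0.368 and 0.717 ± 0.137 TPM, with overlapping libraries. The order at the top changed with soluble IL-2. In EV+IL-2, Batf stood above Gata3 in all 3 libraries, and Bcl6, at 1.68 ± 0.0610 TPM, stood below Irf4 and Prdm1 in all 3.

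**Figure D1:**
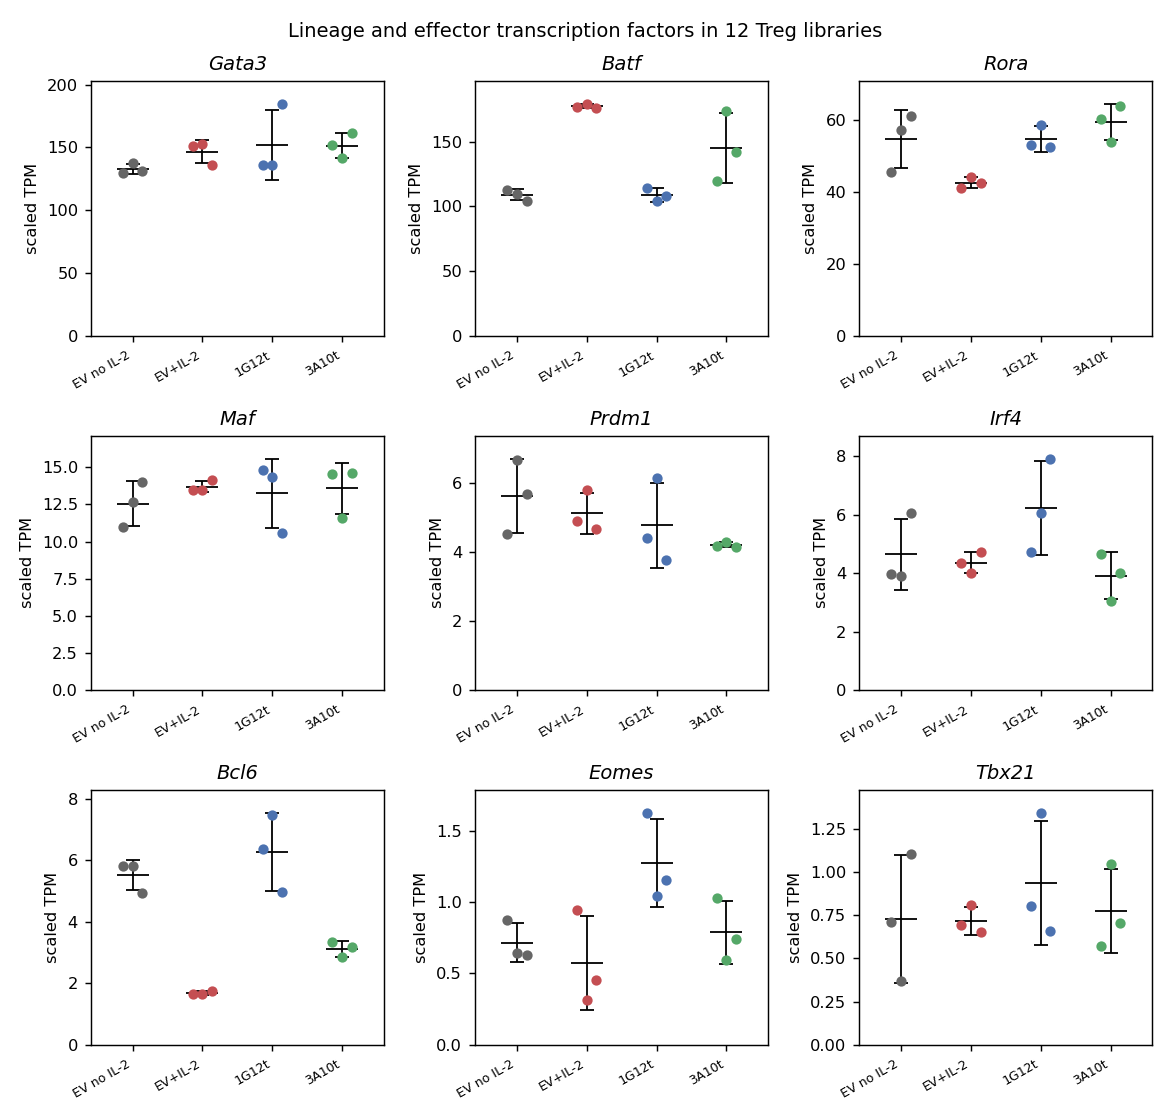
Scaled TPM of each of the 9 factors (vertical axis, from 0, a scale per gene) in the 4 groups (horizontal axis), with points for the 3 libraries and black lines for mean ± SD. The 3 EV+IL-2 libraries sit below the other 9 for Bcl6, at 1.64 to 1.75 TPM, and above the 9 for Batf, at 176 to 179 TPM.

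Of the 9 factors, 7 passed the filter on low TPM, and Tbx21 and Eomes did not. Soluble IL-2 moved 2 of the 7, Batf upward and Bcl6 downward, where 13.3% of all genes tested were called. 3A10t differed from EV no IL-2 in 1 of the 7, Bcl6, against 2.05% of all genes. 1G12t differed from EV no IL-2 in 0 of the 7, with 0 at an unadjusted p under 0.05 in limma, against 0.0199% of all genes called. Between the tethered constructs, 1 of the 7 was called, Bcl6, against 4.27%. Against EV+IL-2, 3A10t differed in 2 of the 7, Bcl6 and Rora (23.4% of all genes), and 1G12t in 3 of the 7, Bcl6, Rora and Batf (20.6%). Gata3, Maf, Prdm1 and Irf4 were called in none of the 6 comparisons with all 12 libraries. The 3 comparisons with EV no IL-2 share its libraries, and so do the 3 with EV+IL-2, so their counts are not independent of each other.

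Counted without a test, the groups did not overlap for 3 of the 7 factors between EV+IL-2 and EV no IL-2 (Batf, Bcl6 and Rora), where 39.6% of all genes did not. They did not overlap for 4 of 7 between 3A10t and EV no IL-2 (25.4% of all genes), for 0 of 7 between 1G12t and EV no IL-2 (16.5%), for 3 of 7 between the constructs (26.2%), for 4 of 7 between 3A10t and EV+IL-2 (36.9%) and for 4 of 7 between 1G12t and EV+IL-2 (43.2%). The median log2 fold change of the 7 lay between −0.056 and 0.11 in the 6 comparisons, beside medians of −0.017 to 0.026 over all genes tested.

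**Figure D2:**
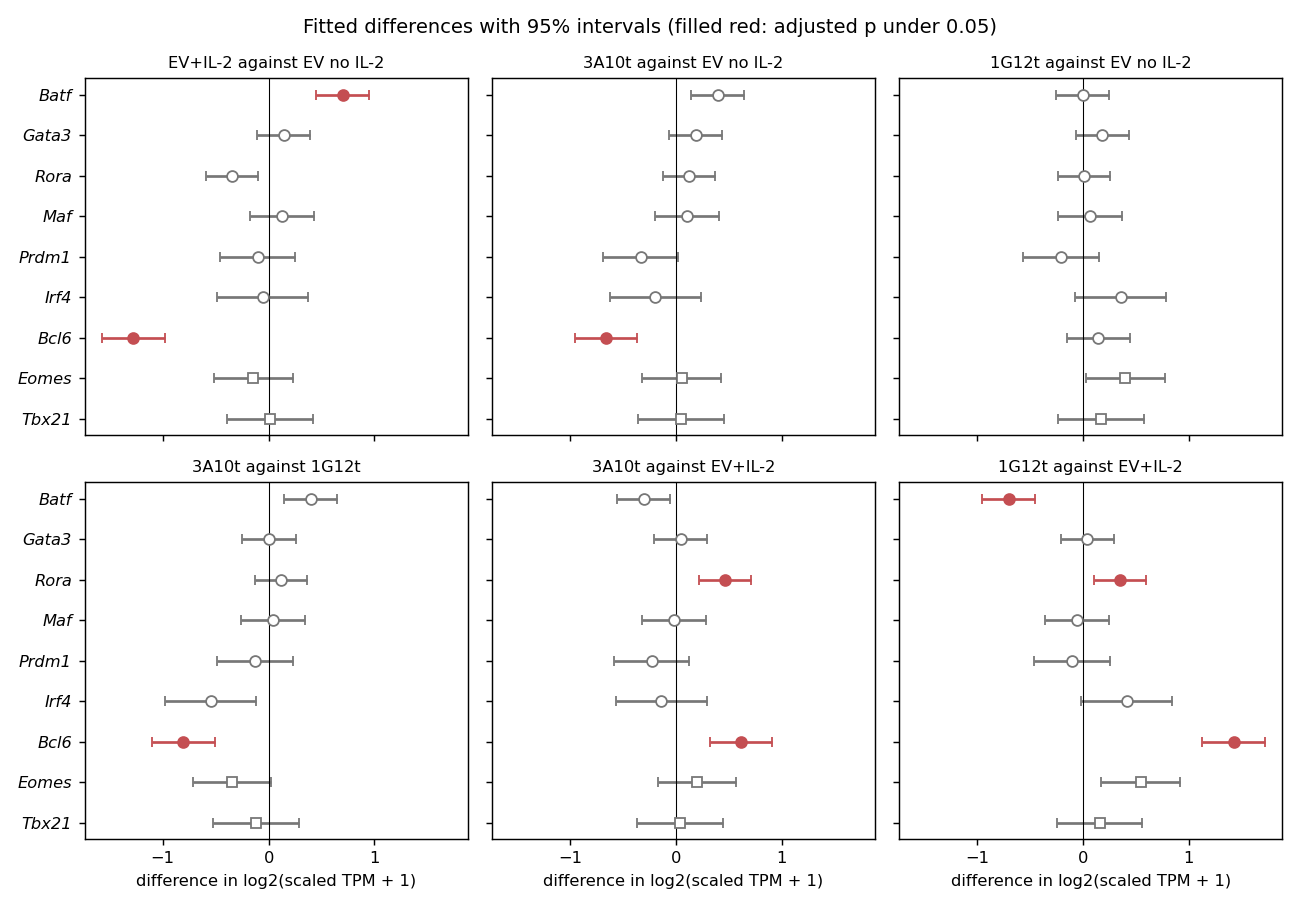
Fitted log2 fold change on the log2(scaled TPM + 1) scale (horizontal axis) of each factor (vertical axis) in the 6 comparisons, with 95% intervals. Filled red points are called, open circles are not, and open squares are Eomes and Tbx21 from the fit with no filter on low TPM; Bcl6 is filled in all panels but 1G12t against EV no IL-2.

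Bcl6 encodes the repressor that directs Tfh fate, and was the factor with the most calls. It lies on the minus strand of chromosome 16 from 23965052 to 23988852 (GENCODE M21, GRCm38). The RefSeq promoter table, on GRCm38.p6, holds windows of 250 bases before to 50 after a start site for 8 of the 9 factors, Maf being without an entry, and 2 windows for Bcl6. They were searched on both strands for TTCNNNGAA, the core to which STAT5 can bind, for TGANTCA, an AP-1 core as used by BATF with JUN proteins, and for GGTGTGA, bound by T-box factors such as T-bet and EOMES. TTCNNNGAA is in 8.30% of all 32851 promoter windows, TGANTCA in 7.81% and GGTGTGA in 3.98%. The first Bcl6 window, chr16:23988803-23989102 on the minus strand, holds 1 match to TTCNNNGAA at 118 bases before the start. The second, chr16:23981234-23981533 on the same strand and inside the gene, holds 3, at 168, 122 and 88 bases before its start. The only other match among the 8 factors was 1 TGANTCA in Prdm1, at 48 bases before its start, and no matches overlapped. A match describes the letters and is not a measured binding site. The windows of the 3 factors with a call are shown 5′ to 3′ with matches in capitals, Batf being chr12:85686470-85686769 and Rora chr9:68653536-68653835, both on the plus strand and without a match.
Bcl6 window 1: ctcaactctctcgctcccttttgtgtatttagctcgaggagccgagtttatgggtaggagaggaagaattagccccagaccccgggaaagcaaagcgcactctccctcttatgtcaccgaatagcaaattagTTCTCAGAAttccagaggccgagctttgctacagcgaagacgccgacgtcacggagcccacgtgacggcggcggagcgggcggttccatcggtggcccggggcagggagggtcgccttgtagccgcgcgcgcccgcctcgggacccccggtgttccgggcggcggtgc
Bcl6 window 2: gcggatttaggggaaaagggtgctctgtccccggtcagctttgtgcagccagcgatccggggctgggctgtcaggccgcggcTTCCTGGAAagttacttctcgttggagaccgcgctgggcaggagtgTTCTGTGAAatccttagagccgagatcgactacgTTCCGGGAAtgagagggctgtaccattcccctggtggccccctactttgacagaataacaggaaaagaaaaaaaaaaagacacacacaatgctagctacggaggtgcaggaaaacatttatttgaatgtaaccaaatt
Batf: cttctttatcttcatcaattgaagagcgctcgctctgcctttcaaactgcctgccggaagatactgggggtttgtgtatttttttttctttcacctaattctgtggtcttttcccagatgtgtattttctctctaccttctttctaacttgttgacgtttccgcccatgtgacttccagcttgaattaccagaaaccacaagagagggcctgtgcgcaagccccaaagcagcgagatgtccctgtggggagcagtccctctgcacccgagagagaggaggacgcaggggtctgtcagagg
Rora: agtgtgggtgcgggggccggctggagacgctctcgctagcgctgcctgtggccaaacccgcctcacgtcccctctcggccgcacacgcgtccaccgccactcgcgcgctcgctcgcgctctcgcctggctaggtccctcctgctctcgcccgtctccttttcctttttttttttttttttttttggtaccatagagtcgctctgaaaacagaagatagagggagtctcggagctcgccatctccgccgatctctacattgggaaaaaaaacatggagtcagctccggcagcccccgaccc

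Bcl6 was at 5.81, 5.80 and 4.94 TPM in the EV no IL-2 libraries and at 1.66, 1.64 and 1.75 TPM for EV+IL-2. The 1G12t libraries held 6.36, 7.48 and 4.96 TPM and the 3A10t libraries 3.34, 2.85 and 3.17 TPM. The 3A10t libraries thus lay between EV+IL-2 and the other groups with no overlap on either side, while 1G12t and EV no IL-2 overlapped. With soluble IL-2 the mean was 30.5% of that without (log2 fold change −1.28, SE 0.13, adjusted p = 0.00011, limma). In 3A10t it was 56.5% of EV no IL-2 (log2 fold change −0.66, SE 0.13, adjusted p = 0.039, limma) and 49.8% of 1G12t (−0.81, adjusted p = 0.021, limma). It remained 1.85 times the mean of EV+IL-2 (0.62 on the log2 scale, adjusted p = 0.0086, limma). In 1G12t it was 1.14 times the mean of EV no IL-2 (log2 fold change 0.15, 95% interval −0.15 to 0.44, adjusted p = 0.81, limma) and 3.72 times that of EV+IL-2 (1.42, adjusted p = 5.4e-05, limma).

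The calls of Bcl6 in EV+IL-2 against EV no IL-2 and against 1G12t held in all 14 alternatives in which the gene was tested. The lower level in 3A10t than in EV no IL-2 was less firm. Leaving out 3A10t replicate 1 gave an adjusted p of 0.010 in limma, in a fit that called 15.3% of all genes lower. However, leaving out EV no IL-2 replicate 1, 2 or 3 gave 0.0964, 0.155 and 0.121, and leaving out 3A10t replicate 2 or 3 gave 0.11 for each. The log2 fold change stayed between −0.72 and −0.62 in these fits, which have 1 library fewer. Likewise, the difference from 1G12t had an adjusted p in limma of 0.052 or 0.066 without 1G12t replicate 1 or 2, and of 0.058 or 0.069 without 3A10t replicate 2 or 3. B cells express Bcl6 too. B cell markers summed to 20.9 to 27.2 TPM for 3A10t, 15.5 to 17.9 for EV no IL-2, 14.5 to 17.4 for EV+IL-2 and 14.2 to 26.9 for 1G12t, with Ms4a1 at 0 in a library, so their sum was higher in the 3A10t libraries, where Bcl6 was lower, than in EV no IL-2. The myeloid list, nearly all Cst3, summed to 539 to 764 TPM for 3A10t and 441 to 555 in the other groups, with Lyz2, S100a8, S100a9 and Csf1r each at 0 in some library. Treg and CD4 T cell markers summed to 2479 to 2650 TPM for 3A10t and 2549 to 2643 for EV no IL-2, with 0 of 8 called between them, beside 2.05% of all genes. Foxp3 was lower in every 3A10t library, as given above, and 3A10t replicate 2 had the highest Cd3d of all libraries (799.5 TPM) and the lowest Cd4 (177 TPM). The part of these markers and of other cell types in the Bcl6 result was not tested.

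Prdm1 encodes Blimp-1, the repressor that opposes BCL6 and marks effector Tregs. It was at 4.52, 6.68 and 5.70 TPM for EV no IL-2 and at 4.93, 5.81 and 4.68 TPM for EV+IL-2. In 1G12t it was at 4.41, 6.15 and 3.79 TPM and in 3A10t at 4.19, 4.31 and 4.17 TPM. All 3 of the 3A10t libraries lay below all 3 of EV no IL-2, though the difference did not pass the test (log2 fold change −0.33, 95% interval −0.69 to 0.024, adjusted p = 0.22, limma). With soluble IL-2 its log2 fold change was −0.10 (95% interval −0.46 to 0.25), which changed sign without EV no IL-2 replicate 2 (0.0073).

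The ratio of Bcl6 to Prdm1 within a library does not depend on the scaling between libraries. It was chosen after the values were seen and has no test. It was 1.28, 0.867 and 0.866 for EV no IL-2, 0.337, 0.282 and 0.374 for EV+IL-2, 1.44, 1.22 and 1.31 for 1G12t, and 0.798, 0.660 and 0.761 for 3A10t. Bcl6 exceeded Prdm1 in all 3 libraries of 1G12t and in 1 of EV no IL-2. The 3A10t ratios lay between those of EV+IL-2 and EV no IL-2 with no overlap.

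**Figure D3:**
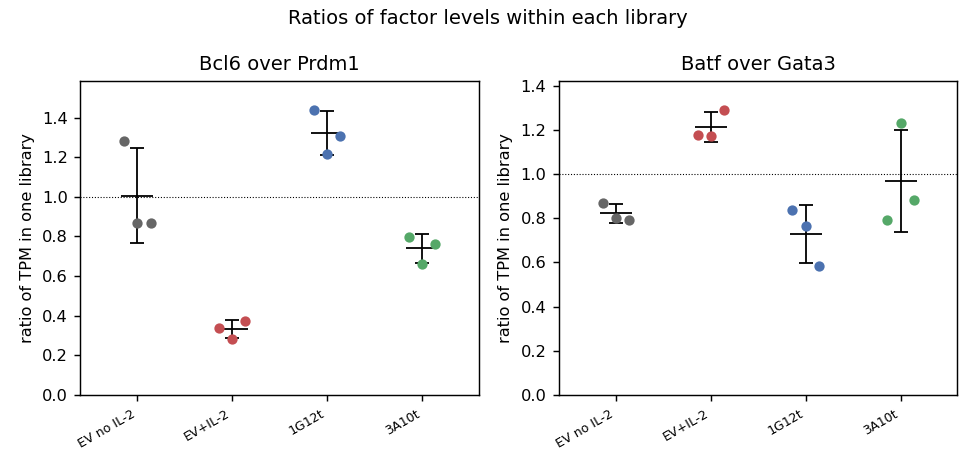
Ratio of Bcl6 to Prdm1 (left) and of Batf to Gata3 (right) within each library (vertical axes, from 0) in the 4 groups, with points for libraries, black lines for mean ± SD and a dotted line at a ratio of 1. The Bcl6 to Prdm1 ratio is 0.331 ± 0.0465 for EV+IL-2 and 0.740 ± 0.0710 for 3A10t, and the Batf to Gata3 ratio is above 1 in the 3 EV+IL-2 libraries and in 3A10t replicate 2 only.

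Batf encodes an AP-1 family factor that cooperates with IRF4 and is needed by effector and tissue Tregs. It lies on chromosome 12 from 85686669 to 85709087, plus strand. Its level was 113, 110.0 and 104 TPM for EV no IL-2, 177, 179 and 176 TPM for EV+IL-2, and 114, 104 and 108 TPM for 1G12t. The 3A10t libraries held 120.1, 174 and 142 TPM, a wider spread than in the other 3 groups. All EV+IL-2 libraries were above all others, and each 3A10t library was above each of EV no IL-2 and 1G12t. Soluble IL-2 raised the mean 1.63 times (log2 fold change 0.70, SE 0.11, adjusted p = 0.0021, limma), and 1G12t was lower than EV+IL-2 by as much (−0.70, adjusted p = 0.0018, limma), both calls holding in all 15 alternatives. Between 1G12t and EV no IL-2 the log2 fold change was −0.0026 (95% interval −0.25 to 0.25, adjusted p = 1 in limma), and its sign was positive with TPM as deposited (0.041) or quantile normalized (0.066).

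In 3A10t, Batf was 1.33 times its mean in EV no IL-2 but did not pass the test (log2 fold change 0.40, 95% interval 0.15 to 0.65, adjusted p = 0.085, limma). It met a looser threshold, an unadjusted p under 0.01 with a log2 fold change beyond 0.25, which 9.5% of all genes met. The same held against 1G12t (0.40, adjusted p = 0.062, limma; 12.4% of all genes at the looser threshold). Without replicate 1 of 3A10t, the lowest library for Batf in that group, the log2 fold change was 0.53 against each (adjusted p = 0.0030 and 0.0031, limma). Over all genes, that exclusion gave 7.91% called higher and 15.3% lower against EV no IL-2, beside 2.05% in either direction with all 12 libraries. Against 1G12t the filter at a mean TPM of at least 5 also gave a call (adjusted p = 0.047, limma). On TPM as deposited the differences from EV no IL-2 and 1G12t were 0.25 and 0.21, where the median of all genes lay at −0.091 and −0.18. Against EV+IL-2 the 3A10t mean was 81.9% (log2 fold change −0.30, adjusted p = 0.078, limma), and without 3A10t replicate 2 the difference was −0.45 with an adjusted p of 0.0048 in limma. It was also called on TPM as deposited (−0.39, adjusted p = 0.0050, limma) and after quantile normalization (−0.31, adjusted p = 0.027, limma).

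Irf4 encodes the partner of BATF induced by T cell receptor signals. It was at 3.98, 3.90 and 6.04 TPM for EV no IL-2, 4.35, 4.00 and 4.71 TPM for EV+IL-2, 4.72, 6.04 and 7.91 TPM for 1G12t, and 4.66, 3.06 and 4.01 TPM for 3A10t. Each 3A10t library was below each 1G12t library, but the difference was not called (log2 fold change −0.55, 95% interval −0.98 to −0.12, adjusted p = 0.0996, limma). Without 3A10t replicate 1 it was −0.65 with an adjusted p of 0.047 in limma, and without 1G12t replicate 3, the highest library, −0.38 with 0.26. Its difference between EV+IL-2 and EV no IL-2 was −0.056 (95% interval −0.49 to 0.37), and 0.11 without EV no IL-2 replicate 3.

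Maf encodes c-Maf, which drives Il10 in effector T cells and Tregs. Its libraries ran from 10.97 to 13.99 TPM for EV no IL-2, 13.4 to 14.1 for EV+IL-2, 10.6 to 14.8 for 1G12t and 11.6 to 14.6 for 3A10t, so that all groups overlapped. Its differences ran from −0.058 to 0.12 over the 6 comparisons, with 95% intervals between −0.36 and 0.43, and in 5 of them the sign turned under some scaling or without some library. Maf shares 440 exon bases with the antisense gene Gm15655 (mean 0.425 TPM), and the counting is not stated to use strand.

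Gata3, on chromosome 2 from 9857078 to 9890034, minus strand, encodes the Th2 factor that Tregs also need at barrier sites. It was at 129.5, 137 and 131 TPM for EV no IL-2, 151, 153 and 136 TPM for EV+IL-2, 136, 136 and 184 TPM for 1G12t, and 152, 141 and 161 TPM for 3A10t. Only 3A10t lay wholly above EV no IL-2 (log2 fold change 0.19, 95% interval −0.067 to 0.44, adjusted p = 0.31, limma). In 1G12t the highest value was that of replicate 3, the library low in Gzmb. Gata3 shares 155 exon bases with the antisense gene Gm13256, at a mean of 0.567 TPM. Differences between 3A10t and 1G12t were near 0 (0.0042, 95% interval −0.25 to 0.26) and turned to −0.19 on TPM as deposited and −0.13 after quantile normalization. The ratio of Batf to Gata3, also chosen after the values were seen, was 0.869, 0.802 and 0.794 for EV no IL-2, 1.175, 1.171 and 1.29 for EV+IL-2, 0.839, 0.764 and 0.586 for 1G12t, and 0.792, 1.23 and 0.882 for 3A10t. The EV+IL-2 ratios were above all of EV no IL-2 and 1G12t, and 3A10t overlapped all 3 groups.

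Rora, on chromosome 9 from 68653786 to 69388246, plus strand, encodes RORα, a factor of Th17 cells and of tissue Tregs. It was at 45.7, 57.4 and 61.1 TPM for EV no IL-2, 41.3, 44.3 and 42.4 TPM for EV+IL-2, 53.0, 58.8 and 52.6 TPM for 1G12t, and 60.4, 54.0 and 63.9 TPM for 3A10t. The EV+IL-2 libraries were below all others. The 3A10t mean was 1.39 times that of EV+IL-2 (0.47 on the log2 scale, SE 0.11, adjusted p = 0.013, limma), and the 1G12t mean 1.28 times (0.35, SE 0.11, adjusted p = 0.046, limma). Blocked on the replicate number, the second had an adjusted p of 0.0504 in limma and was not called. Leaving out any library of 1G12t or EV+IL-2 also ended that call (adjusted p 0.074 to 0.15 in limma, log2 fold change 0.30 to 0.38). The call in 3A10t was lost without EV+IL-2 replicate 1 (0.44, adjusted p = 0.059, limma). Against EV no IL-2 the EV+IL-2 mean was 78.0% and did not pass (log2 fold change −0.34, 95% interval −0.59 to −0.097, adjusted p = 0.069, limma). It passed without EV no IL-2 replicate 1, the lowest of that group (−0.47, adjusted p = 0.015, limma).

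Tbx21, the gene of T-bet, and Eomes, its T-box relative in cytotoxic and memory T cells, were near or below 1 TPM and are given from a fit with no filter on low TPM. Tbx21 was at 0.708, 0.370 and 1.11 TPM for EV no IL-2, 0.695, 0.807 and 0.650 for EV+IL-2, 0.802, 1.34 and 0.659 for 1G12t, and 0.569, 1.04 and 0.707 for 3A10t. All groups overlapped, and its 6 log2 fold changes lay between −0.12 and 0.17. Eomes was at 0.875, 0.643 and 0.632 TPM for EV no IL-2, 0.947, 0.317 and 0.453 for EV+IL-2, 1.62, 1.04 and 1.15 for 1G12t, and 1.03, 0.597 and 0.738 for 3A10t. The 1G12t libraries were above all of EV no IL-2 and EV+IL-2. In that fit the log2 fold change of Eomes in 1G12t was 0.40 against EV no IL-2 (unadjusted p = 0.037, adjusted p = 0.34, limma) and 0.54 against EV+IL-2 (adjusted p = 0.035, limma). The second stands in a fit that called 29.6% of its 50219 genes in that comparison, and the EV+IL-2 libraries had the fewest genes above 0, 30393 to 36239 against 37930 to 43285 in the others. Eomes shares 118 exon bases with the antisense gene Gm33460, at a mean of 0.367 TPM.

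Genes of the programs these factors govern were taken from lists, which, like those below, were drawn up with earlier results of these data known. In the Tfh list, 13 of 15 genes were tested, and soluble IL-2 lowered 5 and raised 0, where 5.13% of all genes were called lower. The median of the 13 was −0.47, beside −0.014 for all genes. The 5 were Cxcr5, the receptor that leads T cells to B cell follicles (5.54 ± 0.508 to 1.32 ± 0.639 TPM, log2 fold change −1.53, adjusted p = 0.0011, limma), Cd200 (−1.16), Pdcd1, the gene of PD-1 (−0.96), Slamf6 (−0.63) and Cd40lg (−0.59). Leaving out single libraries gave 4 or 5, since the call of Cd40lg held only without EV+IL-2 replicate 1 (adjusted p 0.045 to 0.10 over the 6 libraries). In 3A10t against EV no IL-2, 0 of the 13 were called, beside 2.05% of all genes. Without 3A10t replicate 1, 1 of them was higher and 1 lower, where 7.91% of all genes were called higher and 15.3% lower. With all 12 libraries, Cxcr5 in 3A10t was at 5.09, 4.07 and 4.46 TPM (log2 fold change −0.24, 95% interval −0.73 to 0.25, limma) and Pdcd1 at 68.8, 67.2 and 69.5 TPM against 58.4, 53.3 and 57.7 (0.28, adjusted p = 0.11, limma). Against EV+IL-2, 8 of the 13 were higher and 1 lower in 3A10t (10.3% and 13% of all genes), and 5 higher and 1 lower in 1G12t (9.69% and 10.9%). The lower gene was Btla in both (−1.02 and −0.57, adjusted p = 0.0014 and 0.027, limma). With soluble IL-2, Btla lay above EV no IL-2 in all libraries but was not called (0.50, adjusted p = 0.060, limma). Leaving out single libraries gave 4 to 6 higher and 1 or 2 lower in 3A10t, and 4 to 8 higher with 0 lower in 1G12t, the 8 being without 1G12t replicate 3, where 7.25% of all genes were called higher.

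**Figure D4:**
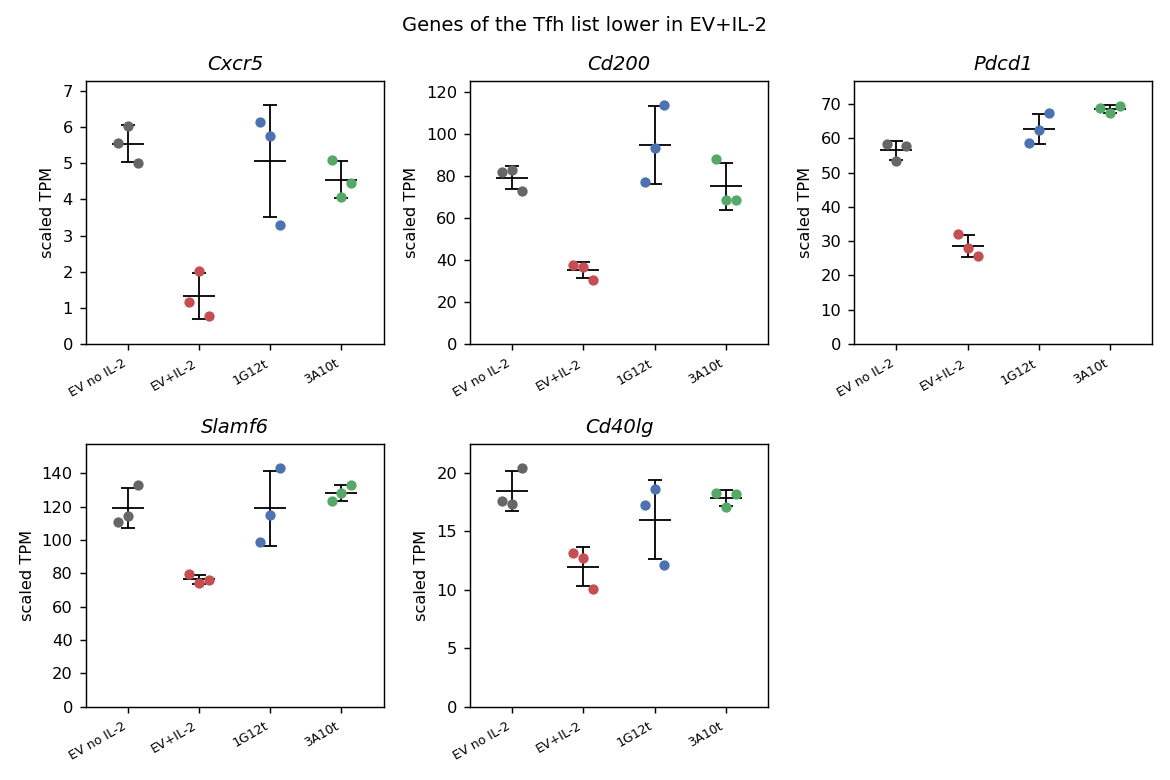
Scaled TPM (vertical axes, from 0) of the 5 Tfh list genes lowered by soluble IL-2 in the 4 groups, with points for libraries and black lines for mean ± SD. The EV+IL-2 libraries lie below all other libraries for Cxcr5, Cd200, Pdcd1 and Slamf6, and 1 library of 1G12t reaches their range for Cd40lg.

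Other lineage and effector factors formed a list of their own. Among 21 tested of 34 lineage partners, EV+IL-2 had 2 lower than EV no IL-2 and 2 higher (5.13% and 8.17% of all genes). Irf8 (log2 fold change −0.83) and Tbx6 (−0.56) were the lower genes, and Runx3 (0.49) and Hopx (0.38) the higher ones. The calls of Tbx6 and Hopx were each lost without 5 of the 6 libraries (adjusted p up to 0.12 and 0.15), and those of Irf8 and Runx3 in no such fit. In 3A10t against EV no IL-2, where 2.05% of all genes were called, only Zbtb7b, the gene of the CD4 lineage factor ThPOK, was called, at 14.4 ± 0.570 against 19.0 ± 1.56 TPM (log2 fold change −0.37, adjusted p = 0.044, limma). It was lost without any of the 5 other libraries (adjusted p up to 0.14), while without 3A10t replicate 1 that comparison had 3 lower and 1 higher (15.3% and 7.91% of all genes). Zbtb7b was also called lower in 3A10t than in 1G12t (−0.63, adjusted p = 0.0078, limma), where 4.27% of all genes were called. Against EV+IL-2 it was called lower too (−0.49, adjusted p = 0.0021, limma), where 23.4% of all genes were called. Of 24 tested among 26 cofactors, soluble IL-2 raised Junb, an AP-1 partner of BATF (0.62, adjusted p = 0.012, limma), and lowered Ets1 (−0.56, adjusted p = 0.0054, limma). Leaving out single libraries ended the call of Junb in 3 of 6 cases (EV no IL-2 replicate 3 and EV+IL-2 replicates 1 and 2, adjusted p up to 0.056) and that of Ets1 in 0. None of the 24 passed in 3A10t against EV no IL-2, beside 2.05% of all genes, and 7 were lower without 3A10t replicate 1, beside 15.3% of all genes. With all libraries, their median in that comparison was −0.20, beside 0.026 for all genes. Against 1G12t, 3 of the 24 were lower and 0 higher in 3A10t, where 4.27% of all genes were called. Against EV+IL-2, 3 were lower and 1 higher (13% and 10.3% of all genes). The medians were −0.33 and −0.28, beside −0.017 and 0 for all genes. Leaving out single libraries gave 0 to 6 lower in each.

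In the lists of genes governed by the other factors, calls with soluble IL-2 lay in both directions, except in the Th2 list. In the effector Treg list of Blimp-1, IRF4, BATF and c-Maf, 4 of 21 tested were higher and 3 lower, beside 8.17% and 5.13% of all genes, which hold for each list here. Gzmb (log2 fold change 3.64, adjusted p = 0.0045, limma) and Il1rl1, the gene of the IL-33 receptor ST2 (1.29), led the higher genes, and Cxcr6 (−1.64) and Lag3 (−1.53) the lower ones. In the Th1 list of T-bet, 2 of 12 were higher, Tnf (1.75) and Il12rb2 (1.45), and 2 lower, Xcl1 (−1.18) and Cxcr3 (−1.01). In the Th17 list, 2 of 7 were higher, Tmem176b (2.38) and Tmem176a (2.32), and 2 lower, Ccl20 (−1.45) and Ccr6 (−1.27). The Th2 list of GATA3 had 5 tested, with Il1rl1 higher and 0 lower, and the cytotoxic list of EOMES had 2 of 9 higher, Gzmb and Nkg7 (1.75), and 2 lower, Klrd1 (−1.19) and Cxcr3. Several genes stand in more than one list. Among the genes named here, leaving out single libraries ended the calls of Klrd1 in 5 of 6 cases (adjusted p up to 0.13) and Ccl20 in 2 of 6 (EV no IL-2 replicate 3 and EV+IL-2 replicate 3, adjusted p up to 0.070). In 3A10t against EV no IL-2, where 2.05% of all genes were called, the integrin gene Itgae of the effector Treg list was the only call in these 5 lists (−1.02, adjusted p = 0.044, limma). This call was lost without any of the 5 other libraries (adjusted p up to 0.15). Without 3A10t replicate 1 the effector Treg list had 5 higher and 2 lower, beside 7.91% and 15.3% of all genes. With all libraries, the median log2 fold changes of the effector Treg, Th1, Th17, Th2 and cytotoxic lists were 0.34, 0.17, 0.46, 0.34 and 0.18. The median of all genes in that comparison was 0.026. Between 1G12t and EV no IL-2, 0 genes were called in any of these lists, and 0 in every alternative. With all libraries, 0.0199% of all genes were called in that comparison.

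Over the 12 libraries, Bcl6 and Batf ran opposite to each other (Pearson's r = −0.93 on the log2 scale), while Bcl6 and Prdm1 (r = 0.16) and Batf and Irf4 (r = −0.57) did so less or not. These are descriptions over libraries that share 4 group means. A search covered 7733 genes with a mean of at least 10 TPM, leaving out symbols that start with Gm or end in Rik. Those closest to Bcl6 were Smap2 (r = 0.96) and the chemokine receptor gene Cxcr4 (r = 0.95). Cxcr4 was at 31.6 ± 0.565 TPM for EV no IL-2, 9.29 ± 0.642 for EV+IL-2, 34.3 ± 4.58 for 1G12t and 16.7 ± 5.51 for 3A10t. Closest to Batf were Ptpn1, a phosphatase gene (r = 0.99), and Tagln2 (r = 0.99). Ptpn1 had the same order of 3A10t libraries as Batf, at 161, 241 and 186 TPM. Closest to Gata3 was Id2 (r = 0.94), at 180.2, 190.3 and 379.8 TPM for 1G12t replicates 1 to 3, so both were highest in replicate 3. The next was Fos (r = 0.87), an AP-1 gene at 396 TPM in that replicate and at 13.8 to 102 TPM in the other 11 libraries. The closest genes were Zc3h12d (r = 0.94) and Zfp60 (0.92) for Rora, Dock8 and Ncoa2 (both 0.93) for Irf4, Smc3 (0.87) and Tmem106b (0.82) for Prdm1, and Hmga1b (0.91) and Siae (0.85) for Maf. For the low genes they were Bicdl1 (0.80) and Ctdsp1 (0.78) for Eomes and Slc35a2 (0.77) and Smg9 (0.71) for Tbx21.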

How the data were processed

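Bulk RNA-seq of cultured mouse Tregs gave 12 libraries, with groups and replicate numbers taken from the labels. The deposited values are TPM for 55228 gene symbols, and all 12 columns were used. To make these TPM, the authors trimmed reads with cutadapt 1.18, aligned them with STAR 2.5.3 to the mouse genome (GRCm38) and estimated expression with RSEM 1.3.0, tool versions being those of the submitters' processing notes. The authors tested counts with DESeq2 1.26, and those counts were not used here. Read depth cannot be read from TPM, so errors are the spread between 3 libraries and none covers counting.

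TPM were divided by median-of-ratios factors, computed on the genes whose mean TPM reached 1 and that were above 0 in every library. All 15043 genes whose mean TPM reached 1 were tested with limma 3.58.1 in R 4.3.3 (lmFit, contrasts, trended eBayes) after a log2 transform of scaled TPM with a pseudocount of 1. The fit had 1 mean per group, all 12 libraries and no replicate block, and p-values were adjusted by Benjamini-Hochberg over all genes tested. Tbx21 and Eomes, under the filter, were taken from a fit without it. The code was tested on simulated data with known changes. Tables and figures were made with Python 3.11.15 and matplotlib 3.10.9.

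The text names all 9 factors, up to 4 called genes per list and comparison with the largest absolute log2 fold change, Cd40lg, the fifth such gene of the Tfh list, which was added after its values were seen, genes of a list given without a direction, and the 2 genes most correlated with each factor over the 12 libraries, among genes whose mean TPM reached 10. Symbols that start with Gm or end in Rik were left out of the search for correlated genes. The factors and lists were chosen with earlier results of these data known, and the ratios after their values were seen. The lists were described by counts and medians, with no set test. A listed gene that is not reported here was left out of these counts. Cell type markers were checked for Tregs, B, myeloid, CD8 T, NK and plasma cells. NK markers summed to at most 0.913 TPM, CD8 T cell markers to 6.51 and plasma cell markers to 3.49 in any library.

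By the labels, libraries with the same replicate number come from the same sort, 1 of 3 run on separate machines, which pairs them. Over the 18 pairs with the same number, deviations from the group means correlated by 0.041 on average (−0.11 to 0.15), with 3 pairs over 0.1, and over the 36 pairs with different numbers by −0.020. Where this block ended a call, its value stands beside the result. The alternatives changed the pseudocount (0.1 or 5), the filter (none, or a minimum of 5), the scaling (none, or quantile normalization), the libraries fitted (the 6 of a comparison, or all but 1) and the model (the block, or an untrended eBayes). GENCODE M21 on GRCm38 gave gene positions, and RefSeq on GRCm38.p6 the promoters. The study's flow cytometry and mouse experiments were not analysed here.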

Additional observations from a re-analysis of the deposited data

How the results depend on the processing

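Of 618 alternative values of single factors, 548 kept their direction and their side of the threshold, 25 lost a call, 9 gained one and 36 changed sign. The cause of a change was not tested, except where the alternative tests fewer genes or samples. The filter at a mean TPM of at least 5 drops Bcl6 and Irf4, so the calls fell to 1 in EV+IL-2 against EV no IL-2, 0 in 3A10t against EV no IL-2 and 1 in 3A10t against EV+IL-2. The call of 3A10t against EV no IL-2, Bcl6, was lost with a pseudocount of 5, with no filter, with quantile normalization and with only the 6 libraries compared (0 calls each, adjusted p 0.0502, 0.0571, 0.0522 and 0.226 in limma), and the 6 libraries also left 0 calls in 3A10t against 1G12t (adjusted p 0.28). Leaving out single libraries gave 0 to 2, 0 to 3 and 1 to 3 calls in 3A10t against EV no IL-2, 1G12t and EV+IL-2. Of the calls of Rora, that of 3A10t against EV+IL-2 was also lost with TPM as deposited (0.38, adjusted p 0.071), and that of 1G12t without a trend (adjusted p 0.057). Bcl6 in 3A10t against EV+IL-2 was lost with quantile normalization (0.43, adjusted p 0.074). With the replicate block, the number of factors called was 2, 1, 0, 1, 2 and 2 in the 6 comparisons in the order of the report, and Rora in 1G12t against EV+IL-2 (log2 fold change 0.35) was the only call it changed.

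The sign changes were all in factors that were not called in that comparison. With TPM as deposited, which put the median of all genes at −0.18 in 3A10t against 1G12t and at 0.11 in 1G12t against EV+IL-2, they were Rora (−0.022) and Maf (−0.032) in 3A10t against EV no IL-2, Batf (0.041) in 1G12t against EV no IL-2, Gata3 (−0.19), Rora (−0.075) and Maf (−0.14) in 3A10t against 1G12t, Gata3 (−0.042) in 3A10t against EV+IL-2 and Maf (0.041) in 1G12t against EV+IL-2. With quantile normalization they were Batf (0.066) in 1G12t against EV no IL-2, Gata3 (−0.13) in 3A10t against 1G12t and Maf (0.14) in 3A10t against EV+IL-2, where the 6 libraries alone gave 0.011.
Leaving out single libraries turned the sign of factors whose log2 fold changes then ran from −0.23 to 0.0073 (Prdm1) and −0.15 to 0.11 (Irf4) in EV+IL-2 against EV no IL-2, from −0.11 to 0.090 (Rora), −0.037 to 0.027 (Batf) and −0.022 to 0.21 (Maf) in 1G12t against EV no IL-2, from −0.066 to 0.15 (Gata3), −0.25 to 0.040 (Prdm1) and −0.0996 to 0.13 (Maf) in 3A10t against 1G12t, from −0.015 to 0.085 (Gata3) and −0.071 to 0.077 (Maf) in 3A10t against EV+IL-2, and from −0.10 to 0.12 (Gata3), −0.26 to 0.024 (Prdm1) and −0.14 to 0.087 (Maf) in 1G12t against EV+IL-2. Values near 1 TPM rest on a depth that is unknown here, which limits what can be said of Tbx21 and Eomes.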
